A study of Saccharomyces cerevisiae with 8 samples.

Results

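Deletion of HEL2 was followed at the level of mRNA in yeast cells that cannot modify the wobble uridine U34 of their tRNAs. The comparison set 2 libraries of ncs2∆elp6∆hel2∆ cells against 2 libraries of ncs2∆elp6∆ cells, 4 of the 8 libraries of the series, and took in every gene of the count table. Of 6337 genes, 6087 had enough counts to be tested, and processes other than protein folding are described here. The ncs2∆elp6∆hel2∆ strain carried the replacements ncs2∆::HIS3MX, elp6∆::URA3 and hel2∆::LEU2, and the ncs2∆elp6∆ strain carried the first pair alone. Both are given as MATa BY4741 cells with his3∆1, leu2∆0 and ura3∆0. The strains with U34 modification, used only for contrast, were hel2∆ (hel2∆::LEU2 in the same his3∆1 leu2∆0 ura3∆0 background) and a wild type labelled met15∆0 in addition. Counts of MET17, the gene also called MET15, did not match these labels for hel2∆ and differed between the strains with and without U34 modification, as described below. Cells grew exponentially in YPD, a rich medium, and poly(A) RNA was sequenced. The study calls its mRNA replicates of both strains biological, but for ncs2∆elp6∆ it counts more of them than the table holds libraries, and neither it nor the labels say which cultures or clones the libraries came from. The p-values measure the spread between these libraries.

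Modified U34 helps the ribosome to read several codons, among them AAA and CAA, and without it ribosomes slow down there. Hel2 is a ubiquitin ligase that recognises ribosomes that have run into each other and marks them, after which the stalled ribosome is split and the unfinished protein is destroyed. This pathway is called ribosome-associated quality control (RQC). Yeast answers many kinds of stress with the paired transcription factors Msn2 and Msn4, which bind a short promoter element named STRE, and answers amino acid shortage with Gcn4. Leu3 activates the genes of branched-chain amino acid synthesis when the leucine precursor isopropylmalate builds up.

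The libraries held 23941037 and 23338892 counts in ncs2∆elp6∆hel2∆, and 15951919 and 20381029 counts in ncs2∆elp6∆. HEL2 (YDR266C) had 0 and 1 counts in ncs2∆elp6∆hel2∆, against 1513 and 1918 in ncs2∆elp6∆, as the labels say. NCS2 (YNL119W) stayed at 11 counts or fewer and ELP6 (YMR312W) at 10 or fewer in all 4 libraries. The a-cell genes STE2, STE6 and BAR1 had at least 2743 counts in each of the 4, while the alpha-factor gene MF(ALPHA)1 had at most 36. Other markers separated less well. The alpha-cell gene SAG1 had between 745 and 991 counts, and the a-cell gene AGA2 between 570 and 1042. The alpha-cell genes STE3 and MF(ALPHA)2 had at most 255 and 118 counts. Genes encoded in mitochondria had at most 13. No chromosome stood apart, with median log2 fold changes between -0.05 and 0.02 over the 16 nuclear chromosomes.

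Of the 6087 genes, 171 rose and 251 fell in ncs2∆elp6∆hel2∆ at an adjusted p under 0.05, by edgeR's quasi-likelihood test with Benjamini-Hochberg adjustment over all genes. These are 2.81% and 4.12% of the genes tested, 6.93% in all, and they are the background for each list of genes below. A gene is said to rise or fall only where it passed this test. The 251 falls include ELP6, although it was deleted in both strains. ELP6 had 0 and 1 counts in ncs2∆elp6∆hel2∆ against 10 and 5 in ncs2∆elp6∆, so a call can rest on a few counts. CPM are read counts relative to the total of their library, scaled for library composition, and fold changes are given as log2 of ncs2∆elp6∆hel2∆ over ncs2∆elp6∆ with their standard error. Libraries of the 2 strains failed to overlap for 56.9% of all genes, so separation of 2 values from 2 others is common here and is not by itself a result. With 2 libraries per strain, an exact permutation test of 1 gene cannot give a two-sided p below 0.333. The number of calls rested on having both libraries: it was 72 without ncs2∆elp6∆hel2∆ replicate 1, 179 without ncs2∆elp6∆hel2∆ replicate 2, 72 without ncs2∆elp6∆ replicate 1 and 69 without ncs2∆elp6∆ replicate 2. Of the 171 rises 44 passed in all 4 of these fits, and of the 251 falls 15 did, HEL2 among them. These are called stable below.

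The fold change also followed the base composition of the genes. Across 5648 genes with a coding sequence in the annotation, Spearman's rho between GC content and log2 fold change was 0.443, against -0.053 in hel2∆ against wild type. The genes that rose had a median GC content of 42.1% and those that fell 36.0%, beside 39.8% for all genes tested. Coding sequences of genes that rose had a median length of 1064 nt, and those of genes that fell 1841 nt, beside 1218 nt for all. The quintile of genes with the lowest GC content, up to 37.4%, held 185 of the falls and 3 of the rises. In that quintile the median deviation of log2 CPM from the mean of the 8 libraries was -0.12 and -0.13 in ncs2∆elp6∆hel2∆, against 0.07 and 0.18 in ncs2∆elp6∆. It was -0.05 and 0.06 in replicates 1 and 2 of hel2∆, and -0.04 and 0.04 in those of wild type. Libraries of these strains thus also differed with GC content, in the same direction by replicate number, which does not show in the comparison of their means. When each library was corrected for GC content, a step chosen after this was seen, 98 of the 171 rises and 33 of the 251 falls kept their call. With that correction 2.35% of the genes tested were called, 1.79% higher and 0.559% lower. What made the libraries differ in this way was not tested.

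**Figure D1:**
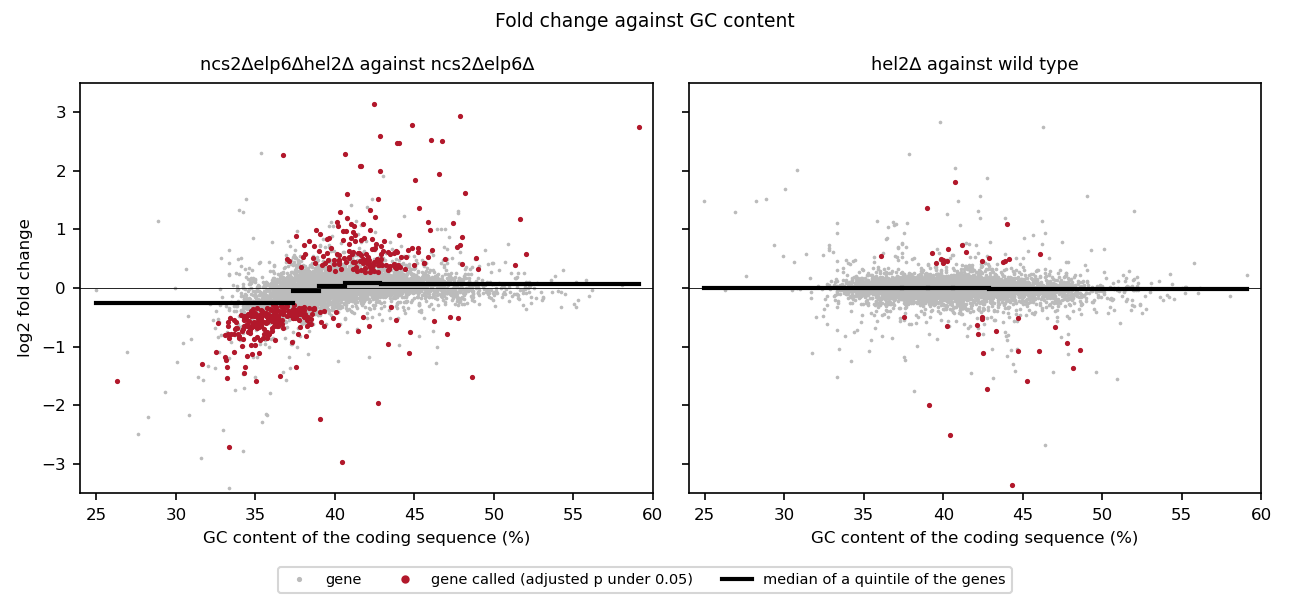
Log2 fold change of each gene (vertical axis) against the GC content of its coding sequence in percent (horizontal axis), for ncs2∆elp6∆hel2∆ against ncs2∆elp6∆ on the left and hel2∆ against wild type on the right. Red points passed the test, black bars give the median of each quintile of the genes, and a few genes with larger changes, HEL2 among them, lie outside the axis. On the left the lowest quintile has a median of -0.25 and holds 185 of the 251 falls, while on the right its median is 0.00.

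Genes of the general stress response gave more rises than any other list described here. The members of this list were chosen with earlier results of these data known. Of 46 genes of the Msn2/4 type that are not chaperones, 28 rose, and 21 were called after correction for GC content. Their median log2 fold change was 0.53, beside 0.01 for all genes tested. Summed over the list, they reached 6560 and 6469 CPM in ncs2∆elp6∆hel2∆, against 4722 and 4528 CPM in ncs2∆elp6∆. The number that rose was between 11, without ncs2∆elp6∆ replicate 1, and 18, without ncs2∆elp6∆hel2∆ replicate 2, when 1 of the 4 libraries was left out. The called members in this group include small proteins of stressed cells as well as enzymes of carbon metabolism, and they are described in turn.

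DDR2 (YOL052C-A), a small protein made under many stresses, had 128 and 89.0 CPM in ncs2∆elp6∆hel2∆, against 15.8 and 12.6 CPM in ncs2∆elp6∆, a log2 fold change of 2.94 ± 0.23 (edgeR adjusted p = 7.72e-05). TMA10 (YLR327C), a ribosome-associated protein, had 98.5 and 76.2 CPM in ncs2∆elp6∆hel2∆, against 11.4 and 14.0 CPM in ncs2∆elp6∆ (2.78 ± 0.15, edgeR adjusted p = 6.66e-06). ROQ1 (YJL144W), whose protein redirects the ubiquitin ligase Ubr1 towards misfolded substrates, had 91.1 and 98.1 CPM in ncs2∆elp6∆hel2∆, against 17.1 and 16.0 CPM in ncs2∆elp6∆ (2.52 ± 0.11, edgeR adjusted p = 8.94e-07). In all 3 genes each ncs2∆elp6∆hel2∆ library stood at least 5 times above each ncs2∆elp6∆ library. RTC3 (YHR087W) had 36.4 and 30.9 CPM in ncs2∆elp6∆hel2∆, against 6.67 and 5.48 CPM in ncs2∆elp6∆ (2.48 ± 0.21). SPI1 (YER150W), a cell wall protein anchored through a lipid, had 76.8 and 88.0 CPM in ncs2∆elp6∆hel2∆, against 24.2 and 18.8 CPM in ncs2∆elp6∆ (1.94 ± 0.14). All 5 of these rises were stable and held after correction for GC content.

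Genes further down the list rose less. YGP1 (YNL160W), a secreted glycoprotein, had 90.8 and 106 CPM in ncs2∆elp6∆hel2∆, against 38.6 and 29.8 CPM in ncs2∆elp6∆ (1.53 ± 0.13). XBP1 (YIL101C), a repressor of transcription in stressed and resting cells, rose by 1.14 ± 0.15. MSC1 (YML128C) had 128 and 131 CPM in ncs2∆elp6∆hel2∆, against 65.3 and 65.4 CPM in ncs2∆elp6∆ (0.99 ± 0.07). The rises of YGP1, XBP1 and MSC1 were stable. FMP16 (YDR070C) rose by 1.33 ± 0.27 at no more than 11.5 CPM, and passed in none of the 4 fits with a library left out. MSC1 and the carbon metabolism genes of the next paragraph were picked after their values had been seen.

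Among enzymes of sugar metabolism, HXK1 (YFR053C), a hexokinase, had 216 and 206 CPM in ncs2∆elp6∆hel2∆, against 134 and 133 CPM in ncs2∆elp6∆ (0.66 ± 0.07, edgeR adjusted p = 0.000604), and this rise was stable. STF2 (YGR008C), which protects drying cells, rose by 0.83 ± 0.11 and was stable too. NQM1 (YGR043C), a second transaldolase, rose by 0.82 ± 0.17, and GND2 (YGR256W), a minor 6-phosphogluconate dehydrogenase, by 0.80 ± 0.18. DCS2 (YOR173W), related to the enzyme that clears mRNA caps, rose by 0.81 ± 0.15. Neither NQM1, GND2 nor DCS2 was stable, and GND2 lost its call after correction for GC content. Of the 10 genes of the pentose phosphate pathway, TAL1 (YLR354C), the main transaldolase, rose by 0.41 ± 0.08.

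Few genes of storage sugars passed. Of 7 trehalose genes, TSL1 (YML100W) and TPS2 (YDR074W), both subunits of the trehalose synthase complex, rose. TSL1 had 224 and 237 CPM in ncs2∆elp6∆hel2∆, against 154 and 150 CPM in ncs2∆elp6∆ (0.60 ± 0.11, edgeR adjusted p = 0.0162). TPS2 rose by 0.33 ± 0.07, and only TSL1 was called after correction for GC content. Of 14 glycogen genes, GSY2 (YLR258W), a glycogen synthase, rose by 0.30 ± 0.08 and lost its call after correction. Neither TSL1, TPS2 nor GSY2 passed in any of the 4 fits with a library left out.

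The promoters of the stress genes that rose can be read directly. They are shown from 250 bases before the start codon to 50 bases after its first base, in assembly R64 (sacCer3) as held by RefSeq, and the capitals mark CCCCT or its reverse complement AGGGG, the core of the STRE. The pair shown are the called members of the list that hold the element and rose most, DDR2 at chrXV:231706-232005 on the minus strand and ROQ1 at chrX:146109-146408 on the plus strand.
DDR2: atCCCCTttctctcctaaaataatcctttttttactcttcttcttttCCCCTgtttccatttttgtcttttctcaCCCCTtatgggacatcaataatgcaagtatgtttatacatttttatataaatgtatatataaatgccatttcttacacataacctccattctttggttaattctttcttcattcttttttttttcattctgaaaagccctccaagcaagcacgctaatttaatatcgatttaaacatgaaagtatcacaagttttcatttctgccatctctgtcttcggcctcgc
ROQ1: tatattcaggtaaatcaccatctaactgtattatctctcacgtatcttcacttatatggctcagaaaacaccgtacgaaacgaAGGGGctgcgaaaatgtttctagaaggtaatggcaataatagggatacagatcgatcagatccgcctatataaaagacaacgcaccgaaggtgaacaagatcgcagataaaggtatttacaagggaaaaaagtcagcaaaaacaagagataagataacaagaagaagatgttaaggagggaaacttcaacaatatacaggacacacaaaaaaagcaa

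DDR2 holds the element 3 times and ROQ1 once. The element lay in 44.7% of the 170 promoters of genes that rose, in 13.1% of the 244 promoters of genes that fell and in 21.8% of all 5646 promoters read. The 170 include the chaperones that rose and the 28 members of the stress list that rose, a list chosen as Msn2/4 type. Genes that rose and genes that fell also differed in GC content, and its part in these shares was not tested. Within the stress list, 21 of the 28 promoters of members that rose held it, and 10 of the 18 promoters of members that did not pass. TMA10, SPI1, YGP1 and XBP1 have no match in this window, which says only that these letters are not in these 300 bases. The Gcn4 site TGACTC lay in 18.2% of promoters of genes that rose, in 8.20% of those of genes that fell and in 8.18% of all.

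**Figure D2:**
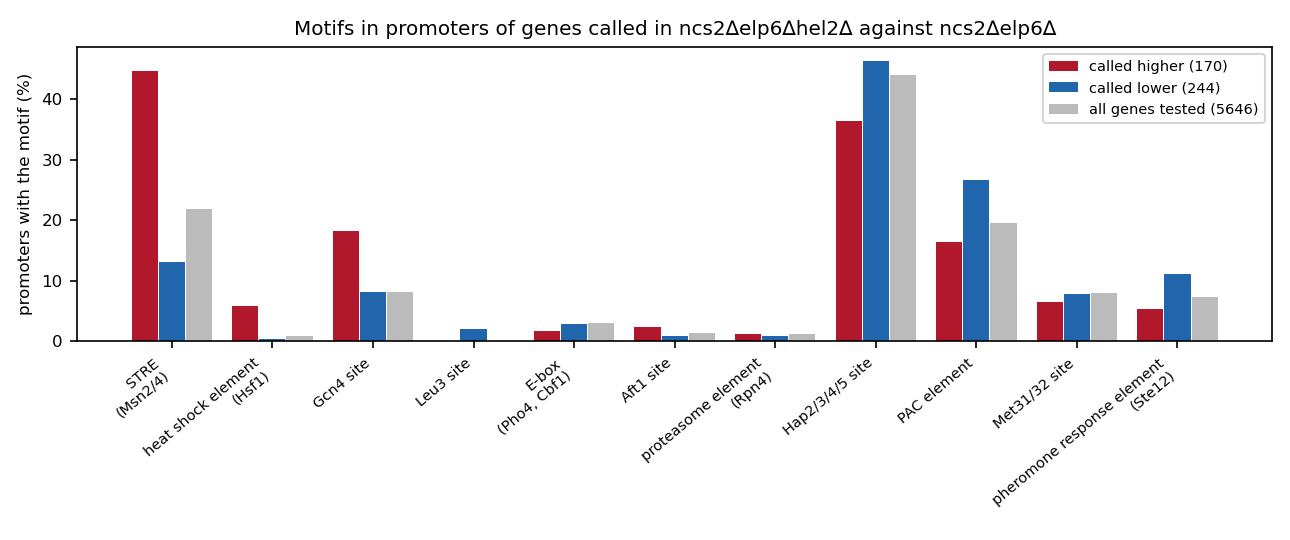
Share of promoters that hold each motif, in percent, for genes that rose in ncs2∆elp6∆hel2∆ (170 promoters), genes that fell (244) and all genes tested (5646). The STRE core is in 44.7% of the first, 13.1% of the second and 21.8% of the third, and the Leu3 site is in 2.05% of the second and 0.124% of the third. Genes that rose include chaperones and members of the stress list, and the part of GC content in the shares was not tested.

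Defence against oxidation split into a few strong rises and 1 fall. Of 34 genes, 5 rose and 1 fell, and 3 rises and the fall were called after correction for GC content. SRX1 (YKL086W), the sulfiredoxin that restores overoxidised peroxiredoxins, had 23.8 and 20.5 CPM in ncs2∆elp6∆hel2∆, against 3.66 and 2.97 CPM in ncs2∆elp6∆ (2.75 ± 0.42, edgeR adjusted p = 0.00705), but passed in 1 of the 4 fits with a library left out. OYE3 (YPL171C), an NADPH oxidoreductase of the old yellow enzyme family, had 45.4 and 38.6 CPM in ncs2∆elp6∆hel2∆, against 8.17 and 6.57 CPM in ncs2∆elp6∆ (2.52 ± 0.20, edgeR adjusted p = 9.78e-05). CTT1 (YGR088W), the cytosolic catalase, had 88.3 and 86.3 CPM in ncs2∆elp6∆hel2∆, against 41.7 CPM in both ncs2∆elp6∆ libraries (1.07 ± 0.09). The rises of OYE3 and CTT1 were stable.

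TSA2 (YDR453C), a peroxiredoxin, and GRX1 (YCL035C), a glutaredoxin, were picked out after their values had been seen. TSA2 rose by 0.57 ± 0.14 and GRX1 by 0.49 ± 0.11, and both lost their calls after correction. The fall was in MXR1 (YER042W), which repairs oxidised methionine. MXR1 had 86.0 and 92.1 CPM in ncs2∆elp6∆hel2∆, against 138 and 141 CPM in ncs2∆elp6∆ (-0.65 ± 0.08, edgeR adjusted p = 0.00175), and was stable.

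**Figure D3:**
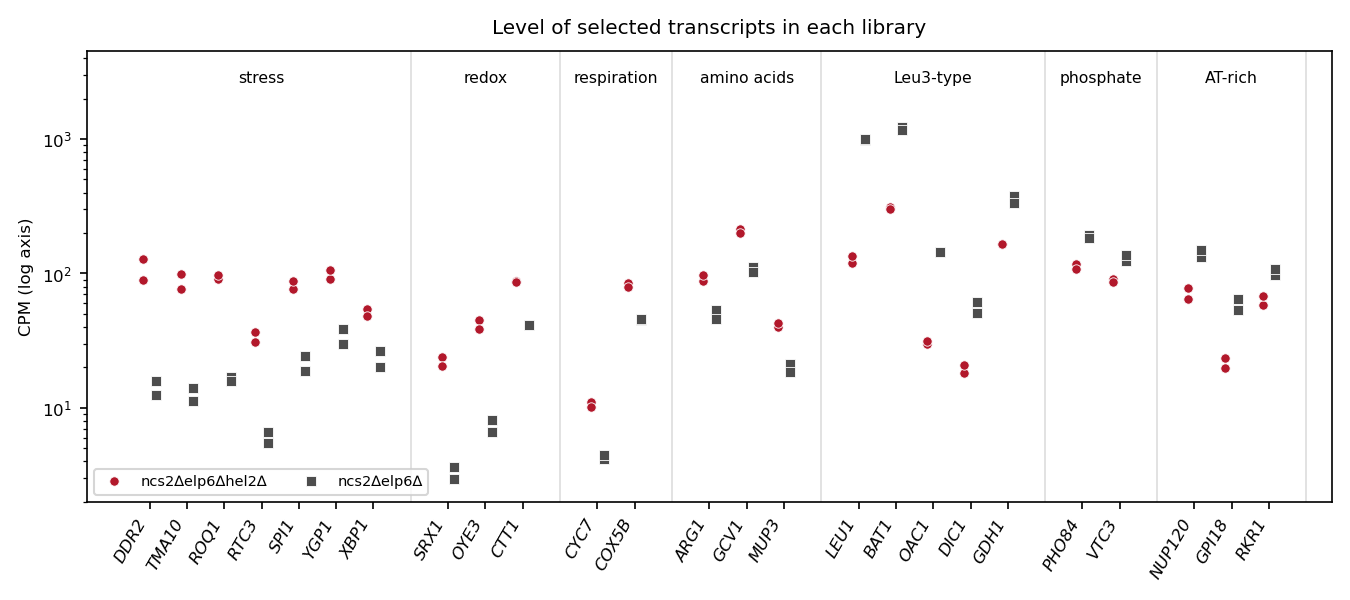
Level of 25 transcripts in CPM on a log axis, with the 2 ncs2∆elp6∆hel2∆ libraries as red circles on the left and the 2 ncs2∆elp6∆ libraries as grey squares on the right of each gene. The libraries of the strains do not overlap for any gene drawn, and the distance is widest for LEU1, DDR2, TMA10 and SRX1.

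Several regulators of transcription changed with these genes. Of 40 transcription factor transcripts, 6 rose and 1 fell, and 7 rises were called after correction for GC content. RPN4 (YDL020C), the activator of proteasome genes, had 316 and 318 CPM in ncs2∆elp6∆hel2∆, against 168 and 196 CPM in ncs2∆elp6∆ (0.80 ± 0.09, edgeR adjusted p = 0.00125), and was stable. CIN5 (YOR028C), an activator of the AP-1 family, had 32.8 CPM in both ncs2∆elp6∆hel2∆ libraries, against 16.2 and 20.4 CPM in ncs2∆elp6∆ (0.84 ± 0.13). USV1 (YPL230W), a zinc finger factor of cells on poor carbon sources, rose by 0.81 ± 0.14. MSN4 (YKL062W) rose by 0.43 ± 0.09 (edgeR adjusted p = 0.0276), whereas its partner MSN2 (YMR037C) had a log2 fold change of -0.13 ± 0.08 (edgeR adjusted p = 0.332). ROX1 (YPR065W), the repressor of hypoxic genes and picked after its values had been seen, rose by 0.46 ± 0.09. The rises of CIN5, USV1, MSN4 and ROX1 were not stable. The fall was in PDR1 (YGL013C), the activator of drug efflux genes (-0.47 ± 0.09), and it was not called after correction. For HSF1, GCN4, LEU3 and PHO4 the log2 fold changes were -0.05 ± 0.09, 0.13 ± 0.07, 0.07 ± 0.10 and -0.32 ± 0.17, and none passed (edgeR adjusted p between 0.267 and 0.780).

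Without correction for GC content no proteasome gene rose beside RPN4 in edgeR, at an unadjusted p under 0.05 or in DESeq2. After correction 2 were higher and 5 lower at an unadjusted p under 0.05 by edgeR, and none was called. Of 36 proteasome subunit genes, RPN3 (YER021W) and ECM29 (YHL030W), a subunit of the cap and a proteasome adaptor, fell by 0.30 and 0.39 on the log2 scale, with a standard error of 0.07 and 0.08, and the median was 0.02. The Rpn4 element GGTGGCAAA lay in 28 of the 36 promoters, against 1.26% of all promoters. The falls of RPN3 and ECM29 were not called after correction for GC content or in any fit with a library left out. UBI4 (YLL039C), the polyubiquitin gene, had 542 and 490 CPM in ncs2∆elp6∆hel2∆, against 334 and 350 CPM in ncs2∆elp6∆ (0.59 ± 0.10, edgeR adjusted p = 0.0117). Of the 30 ubiquitin and segregase genes, HRD1 (YOL013C) and SSM4 (YIL030C), ubiquitin ligases of the endoplasmic reticulum, fell by 0.33 and 0.50 on the log2 scale, and both lost their calls after correction.

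Among respiratory genes the isoforms used at low oxygen or under stress rose. Of 40 genes of the respiratory chain and ATP synthase, 3 rose and 1 fell, with a median of 0.15, and the 3 rises were called after correction for GC content. COX5B (YIL111W), the hypoxic form of a cytochrome c oxidase subunit, had 84.6 and 79.4 CPM in ncs2∆elp6∆hel2∆, against 44.9 and 45.5 CPM in ncs2∆elp6∆ (0.86 ± 0.10, edgeR adjusted p = 0.00137), and was stable. CYC7 (YEL039C), the minor cytochrome c, had 11.0 and 10.2 CPM in ncs2∆elp6∆hel2∆, against 4.14 and 4.47 CPM in ncs2∆elp6∆ (1.30 ± 0.22, edgeR adjusted p = 0.0117), and passed in 1 of the 4 fits with a library left out. STF1 (YDL130W-A), which helps to inhibit the ATP synthase, rose by 0.71 ± 0.16. QCR9 (YGR183C), a small subunit of complex III, fell by 0.93 on the log2 scale with a standard error of 0.22, and not after correction.

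Amino acid synthesis moved in opposite directions. Arginine genes rose: 5 of 10 were called, with a median log2 fold change of 0.27, and 4 were called after correction for GC content. ARG1 (YOL058W), argininosuccinate synthetase, had 88.1 and 97.9 CPM in ncs2∆elp6∆hel2∆, against 53.5 and 45.9 CPM in ncs2∆elp6∆ (0.91 ± 0.11, edgeR adjusted p = 0.00161). ARG4 (YHR018C), argininosuccinate lyase, had 609 and 622 CPM in ncs2∆elp6∆hel2∆, against 415 and 384 CPM in ncs2∆elp6∆ (0.62 ± 0.08). ARG1 and ARG4 were stable, and ARG7 (YMR062C), ornithine acetyltransferase, rose by 0.49 ± 0.07 and passed in 3 of the 4 fits with a library left out.

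Genes of lysine and histidine synthesis were also among the rises. Of 8 lysine genes, 5 rose with a median of 0.28, but 1 was called after correction. LYS20 (YDL182W) and LYS21 (YDL131W), the homocitrate synthases, rose by 0.53 ± 0.09 and 0.31 ± 0.07, and their values are uncertain because the coding sequences are near-identical copies and the handling of shared reads was not stated. LYS1 (YIR034C) and LYS2 (YBR115C), later enzymes of the pathway, rose by 0.32 ± 0.07 and 0.29 ± 0.07. Without ncs2∆elp6∆ replicate 1 no lysine gene was called, nor without ncs2∆elp6∆ replicate 2 or ncs2∆elp6∆hel2∆ replicate 2, and 1 was without ncs2∆elp6∆hel2∆ replicate 1. Of the 8, 6 had an unadjusted p under 0.05, and DESeq2 called 5. Of 6 histidine genes HIS4 (YCL030C) rose by 0.45 ± 0.07 and HIS5 (YIL116W) by 0.35 ± 0.07, and both were called after correction.

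In the aromatic pathway 4 of 13 genes rose and 1 fell, and 2 rises were called after correction. ARO3 (YDR035W) and ARO4 (YBR249C), which start the pathway, rose by 0.42 ± 0.08 and 0.36 ± 0.07, and ARO8 (YGL202W), an aminotransferase, by 0.35 ± 0.07, of which ARO8 lost its call after correction. ARO7 (YPR060C), chorismate mutase, fell by 0.44 on the log2 scale with a standard error of 0.09, and the fall was not called after correction. ASN1 (YPR145W), asparagine synthetase, rose by 0.34 ± 0.07 and PRO1 (YDR300C), which starts proline synthesis, fell by 0.38 on the log2 scale, both without a call after correction. None of ARO3, ARO4, ARO7, ARO8, ASN1 and PRO1 was stable.

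Genes of glycine cleavage rose. GCV1 (YDR019C), a subunit of the glycine decarboxylase that feeds carbon into the folate pool, had 214 and 200 CPM in ncs2∆elp6∆hel2∆, against 112 and 102 CPM in ncs2∆elp6∆ (0.95 ± 0.08, edgeR adjusted p = 0.000132), and was stable. GCV2 (YMR189W), another subunit, rose by 0.41 ± 0.08, and SHM2 (YLR058C), the cytosolic serine hydroxymethyltransferase, by 0.44 ± 0.07. They are the 3 that rose of 14 genes of serine, glycine and threonine synthesis, and GCV2 lost its call after correction. Of 22 purine and one-carbon genes, SHM2 and ADE17 (YMR120C), a late enzyme of purine synthesis, rose, ADE17 by 0.30 ± 0.07 and without a call after correction. MUP3 (YHL036W), a low-affinity methionine permease, had 40.3 and 42.9 CPM in ncs2∆elp6∆hel2∆, against 21.1 and 18.7 CPM in ncs2∆elp6∆ (1.07 ± 0.13, edgeR adjusted p = 0.00196), was stable, and was the only one called of 27 genes of sulfate assimilation and the methionine cycle.

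Promoters of arginine genes are shown for the called members of the list with the largest change that hold the Gcn4 site TGACTC, in capitals. They are ARG4 at chrVIII:141353-141652 and ARG7 at chrXIII:396330-396629, both on the minus strand.
ARG4: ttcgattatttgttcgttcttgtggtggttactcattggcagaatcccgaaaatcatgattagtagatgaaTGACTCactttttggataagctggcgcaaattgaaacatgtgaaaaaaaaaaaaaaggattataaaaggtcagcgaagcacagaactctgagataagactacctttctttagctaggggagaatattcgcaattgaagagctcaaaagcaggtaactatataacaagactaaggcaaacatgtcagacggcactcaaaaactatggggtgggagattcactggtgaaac
ARG7: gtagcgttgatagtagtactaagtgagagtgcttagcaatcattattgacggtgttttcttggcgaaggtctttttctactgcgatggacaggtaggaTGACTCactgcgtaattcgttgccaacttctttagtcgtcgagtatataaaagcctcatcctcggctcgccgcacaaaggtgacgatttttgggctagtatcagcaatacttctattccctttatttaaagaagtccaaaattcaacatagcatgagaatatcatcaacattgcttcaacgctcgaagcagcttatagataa

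The Gcn4 site lay in the promoters of 2 of the 5 arginine genes that rose and of 4 of the 5 that did not pass.

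Branched-chain amino acid synthesis fell as a group. Of 12 genes, 8 fell, the median log2 fold change was -0.56, and 8 were called after correction for GC content. Summed over the list, they reached 3990 and 4221 CPM in ncs2∆elp6∆hel2∆, against 7622 and 7029 CPM in ncs2∆elp6∆. With 1 of the 4 libraries left out, 6 or 7 were called. HEL2 was replaced with LEU2, a gene of leucine synthesis, in cells that were otherwise leu2∆0. The effect of HEL2 loss and that of the LEU2 marker therefore cannot be told apart, for these genes or for any other in the comparison.

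OAC1 (YKL120W), a mitochondrial carrier of oxaloacetate and isopropylmalate, had 29.9 and 31.2 CPM in ncs2∆elp6∆hel2∆, against 143 and 145 CPM in ncs2∆elp6∆ (-2.24 ± 0.07, edgeR adjusted p = 1.57e-07). BAT1 (YHR208W), the mitochondrial aminotransferase, had 311 and 302 CPM in ncs2∆elp6∆hel2∆, against 1237 and 1159 CPM in ncs2∆elp6∆ (-1.97 ± 0.08, edgeR adjusted p = 6.61e-07). LEU1 (YGL009C), isopropylmalate isomerase, had 119 and 135 CPM in ncs2∆elp6∆hel2∆, against 982 and 1005 CPM in ncs2∆elp6∆. GDH1 (YOR375C), which makes glutamate, had 167 and 165 CPM in ncs2∆elp6∆hel2∆, against 379 and 333 CPM in ncs2∆elp6∆ (-1.10 ± 0.09). The earlier enzymes of the pathway, picked after their values had been seen, changed less. ILV3 (YJR016C) had 494 and 513 CPM in ncs2∆elp6∆hel2∆, against 893 and 806 CPM in ncs2∆elp6∆ (-0.75 ± 0.08). LEU4 (YNL104C), which commits carbon to leucine, had 408 CPM in both ncs2∆elp6∆hel2∆ libraries, against 607 and 591 CPM in ncs2∆elp6∆ (-0.55 ± 0.07). ILV5 (YLR355C) fell by 0.57 and ILV2 (YMR108W) by 0.33 on the log2 scale. Apart from ILV5 and ILV2, these falls were stable.

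Transporters outside the list fell as well. DIC1 (YLR348C), the mitochondrial dicarboxylate carrier, had 18.3 and 20.7 CPM in ncs2∆elp6∆hel2∆, against 61.5 and 51.1 CPM in ncs2∆elp6∆ (-1.53 ± 0.15, edgeR adjusted p = 0.000364), and BAP2 (YBR068C), a permease for branched-chain amino acids, had 413 and 470 CPM in ncs2∆elp6∆hel2∆, against 678 and 697 CPM in ncs2∆elp6∆ (-0.64 ± 0.08, edgeR adjusted p = 0.00174). Both were stable. TAT1 (YBR069C), another amino acid permease, fell by 0.49 on the log2 scale with a standard error of 0.08, and its gene overlaps a noncoding gene in the annotation. MAE1 (YKL029C), the mitochondrial malic enzyme, fell by 0.49 on the log2 scale too, and LSC2 (YGR244C), of the citric acid cycle, rose by 0.43 ± 0.08, a call that LSC2 lost after correction.

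The Leu3 site, CCGG followed by 2 free bases and CCGG, is held by few promoters. It is shown in capitals for LEU1 at chrVII:478603-478902 on the minus strand and BAT1 at chrVIII:517282-517581 on the plus strand.
LEU1: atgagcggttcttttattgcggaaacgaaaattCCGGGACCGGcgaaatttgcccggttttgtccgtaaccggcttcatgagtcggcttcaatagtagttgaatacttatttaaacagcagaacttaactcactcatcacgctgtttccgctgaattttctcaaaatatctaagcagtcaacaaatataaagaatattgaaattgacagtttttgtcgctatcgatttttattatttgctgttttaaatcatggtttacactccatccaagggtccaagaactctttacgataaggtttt
BAT1: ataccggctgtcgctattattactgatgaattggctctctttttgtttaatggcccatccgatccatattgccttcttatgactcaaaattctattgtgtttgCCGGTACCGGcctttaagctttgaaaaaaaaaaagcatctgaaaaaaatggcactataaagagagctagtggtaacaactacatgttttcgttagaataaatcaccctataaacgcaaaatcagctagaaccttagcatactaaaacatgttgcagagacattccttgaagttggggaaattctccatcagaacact

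Of all 5646 promoters, 7 held the site, and 5 of these 7 belonged to genes that fell. Besides LEU1 and BAT1 these were FSF1, DRE2 and BRO1, which are on no list of the pathway and are named because of this match, after their values had been seen. FSF1 (YOR271C), a mitochondrial carrier of the sideroflexin family, had 128 and 136 CPM in ncs2∆elp6∆hel2∆, against 243 and 208 CPM in ncs2∆elp6∆ (-0.78 ± 0.09, edgeR adjusted p = 0.00144), and was stable. DRE2 (YKR071C), which takes part in building iron-sulfur proteins in the cytosol, fell by 0.50 on the log2 scale, and BRO1 (YPL084W), which acts in sorting to the vacuole, by 0.44. Of DRE2 and BRO1, only DRE2 was called after correction for GC content, and neither was stable. OAC1, the list member with the second largest fall, has no match in its window.

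Phosphate genes gave a few calls in both directions. Of 28 genes of phosphate uptake and polyphosphate, 3 fell and 1 rose, and the median was -0.16. PHO84 (YML123C), the high-affinity phosphate transporter, had 117 and 107 CPM in ncs2∆elp6∆hel2∆, against 192 and 182 CPM in ncs2∆elp6∆ (-0.74 ± 0.08, edgeR adjusted p = 0.000601), was stable, and overlaps a noncoding gene in the annotation. VTC3 (YPL019C), of the polyphosphate polymerase, had 91.4 and 86.7 CPM in ncs2∆elp6∆hel2∆, against 124 and 136 CPM in ncs2∆elp6∆ (-0.55 ± 0.08), and PHO81 (YGR233C), the inhibitor of the phosphate-sensing kinase, fell by 0.54 on the log2 scale. PHM8 (YER037W), a phosphatase induced when phosphate runs short, went the other way, with 51.3 and 43.3 CPM in ncs2∆elp6∆hel2∆, against 23.3 and 27.8 CPM in ncs2∆elp6∆ (0.89 ± 0.15). After correction for GC content PHO84 and PHM8 kept their calls, while VTC3 and PHO81 did not. None of the 4 called genes holds the Pho4 site CACGTG in its window, which 7 of the 28 promoters do.

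Transport at the cell surface gave mixed values. QDR2 (YIL121W), a multidrug transporter, had 80.9 and 82.0 CPM in ncs2∆elp6∆hel2∆, against 124 and 130 CPM in ncs2∆elp6∆ (-0.64 ± 0.08, edgeR adjusted p = 0.00151), and was stable. TPO4 (YOR273C), a polyamine exporter, rose by 0.46 ± 0.11. Among 21 genes of hexose transport and glucose sensing, HXT5 (YHR096C), the transporter of slowly growing cells, rose by 0.86 ± 0.14 and HXT1 (YHR094C), the low-affinity transporter, by 0.44 ± 0.11, while HXT4 (YHR092C) fell by 0.64 on the log2 scale. Of 29 iron genes, FIT2 (YOR382W), a cell wall protein that holds siderophores, had 204 and 248 CPM in ncs2∆elp6∆hel2∆, against 146 and 134 CPM in ncs2∆elp6∆ (0.69 ± 0.16). ISU1 (YPL135W) rose by 0.43 ± 0.09 and ISU2 (YOR226C) fell by 0.50 on the log2 scale. They encode paired scaffolds for iron-sulfur clusters. TPO4, HXT1, FIT2 and ISU1 lost their calls after correction for GC content.

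At the cell wall, 3 of 51 genes rose, SPI1 among them. PIR3 (YKL163W) and TIP1 (YBR067C), both mannoproteins, rose by 0.99 ± 0.21 and 0.71 ± 0.16 and were called after correction, though in no fit with a library left out. NCW2 (YLR194C), a wall protein on no list of the wall, had 309 and 273 CPM in ncs2∆elp6∆hel2∆, against 176 and 143 CPM in ncs2∆elp6∆ (0.87 ± 0.11, edgeR adjusted p = 0.00161), and was stable. In the vacuole and autophagy list 3 of 34 genes rose and 1 fell. ICY2 (YPL250C) had 59.1 and 50.8 CPM in ncs2∆elp6∆hel2∆, against 27 and 24.2 CPM in ncs2∆elp6∆ (1.10 ± 0.14), and was stable. PBI2 (YNL015W), an inhibitor of vacuolar proteinase B, rose by 0.60 ± 0.14, APE1 (YKL103C), a vacuolar aminopeptidase, by 0.39 ± 0.07, and ATG1 (YGL180W), the kinase that starts autophagy, fell by 0.46 on the log2 scale. PBI2 and ATG1 lost their calls after correction.

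Both a-factor genes rose, with a wide spread between libraries. MFA1 (YDR461W), which encodes a-factor, had 168 and 56.8 CPM in ncs2∆elp6∆hel2∆, against 24.9 and 37.7 CPM in ncs2∆elp6∆ (1.84 ± 0.42, edgeR adjusted p = 0.0347). MFA2 (YNL145W), the second a-factor gene, had 129 and 63.8 CPM in ncs2∆elp6∆hel2∆, against 31.6 and 42.5 CPM in ncs2∆elp6∆ (1.37 ± 0.27, edgeR adjusted p = 0.0224). In both genes ncs2∆elp6∆hel2∆ replicate 1 stood at least 2 times above replicate 2. Without it neither was called, with log2 fold changes of 0.89 for MFA1 and 0.81 for MFA2. Neither was called without ncs2∆elp6∆ replicate 1 or ncs2∆elp6∆ replicate 2, and neither was called after correction for GC content. The histone H3 genes HHT1 (YBR010W) and HHT2 (YNL031C) rose by 0.62 ± 0.13 and 0.45 ± 0.11, the only calls among 11 histone genes. Both lost them after correction.

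The falls outside these groups lay mostly in AT-rich genes. ERV14 (YGL054C), a receptor that loads membrane proteins into vesicles leaving the endoplasmic reticulum, had 52.4 and 56.8 CPM in ncs2∆elp6∆hel2∆, against 159 and 168 CPM in ncs2∆elp6∆ (-1.58 ± 0.37, edgeR adjusted p = 0.038). The same transcript had 73.6 and 153 CPM in the hel2∆ libraries and 71.9 and 163 CPM in the wild-type libraries, so libraries of 1 strain differed by more than 2 times. OST5 (YGL226C-A), of the enzyme that attaches N-glycans, had 44.2 and 56.6 CPM in ncs2∆elp6∆hel2∆, against 131 and 126 CPM in ncs2∆elp6∆ (-1.35 ± 0.32), and 82.0 and 155 CPM in hel2∆, against 81.4 and 150 CPM in wild type. ILM1 (YJR118C), POP6 (YGR030C), a protein of the RNA-processing enzymes RNase P and MRP, and MER1 (YNL210W), a meiotic splicing factor, fell by 1.23, 1.29 and 1.5 on the log2 scale. None of ERV14, OST5, ILM1, POP6 and MER1 was called after correction for GC content, and none in any fit with a library left out. LSM2 (YBL026W), of the ring that binds the end of U6 RNA, and CAL4 (YJR011C) both fell by 1.34 on the log2 scale and kept their calls after correction, with adjusted p of 0.0481 and 0.0487 in edgeR.

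Machinery of the secretory pathway and the nuclear envelope fell in numbers, on lists that were added after the called genes had been seen. Of 41 genes of vesicle tethering complexes, 11 fell, with a median log2 fold change of -0.24 and a median GC content of 36.3%. VPS52 (YDR484W), of the GARP complex, had 30.1 and 25.8 CPM in ncs2∆elp6∆hel2∆, against 47.1 and 48.7 CPM in ncs2∆elp6∆ (-0.78 ± 0.14). COG5 (YNL051W) and COG1 (YGL223C), of the Golgi COG complex, fell by 0.68 and 0.58 on the log2 scale. SEC10 (YLR166C), of the exocyst, fell by 0.60, and after correction its log2 fold change was 0.036. Of 47 genes of the nuclear pore and its carriers, 11 fell with a median of -0.17. NUP120 (YKL057C) had 64.7 and 77.4 CPM in ncs2∆elp6∆hel2∆, against 133 and 151 CPM in ncs2∆elp6∆ (-1.0 ± 0.17, edgeR adjusted p = 0.0131). NUP188 (YML103C), another pore protein, fell by 0.79 on the log2 scale, and the carriers KAP122 (YGL016W) and CSE1 (YGL238W) by 0.85 and 0.77.

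After correction for GC content no gene of the tethering or the pore list was called by edgeR, although 6 and 12 had lower values at an unadjusted p under 0.05, and DESeq2 without the correction gave 13 and 14 falls. Of 47 genes of GPI anchor and N-glycan synthesis, 7 fell with a median of -0.32, and 1 fall was called after correction. GPI18 (YBR004C), a mannosyltransferase, had 19.9 and 23.6 CPM in ncs2∆elp6∆hel2∆, against 53.9 and 64.8 CPM in ncs2∆elp6∆ (-1.45 ± 0.29). DFG10 (YIL049W), which makes dolichol, had 21 and 24.3 CPM in ncs2∆elp6∆hel2∆, against 46.4 and 52.4 CPM in ncs2∆elp6∆ (-1.13 ± 0.20) and is the one that kept its call. ARV1 (YLR242C), a lipid transporter, fell by 0.82 and GPI1 (YGR216C), which acts in the first step of anchor synthesis and was picked after its value had been seen, by 0.66 on the log2 scale. Of 10 proteins of the U1 snRNP, PRP39 (YML046W) and PRP42 (YDR235W) fell by 0.73 and 0.64 on the log2 scale, and MUD1 (YBR119W) rose by 0.54 ± 0.09. After correction MUD1 alone was called.

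**Figure D4:**
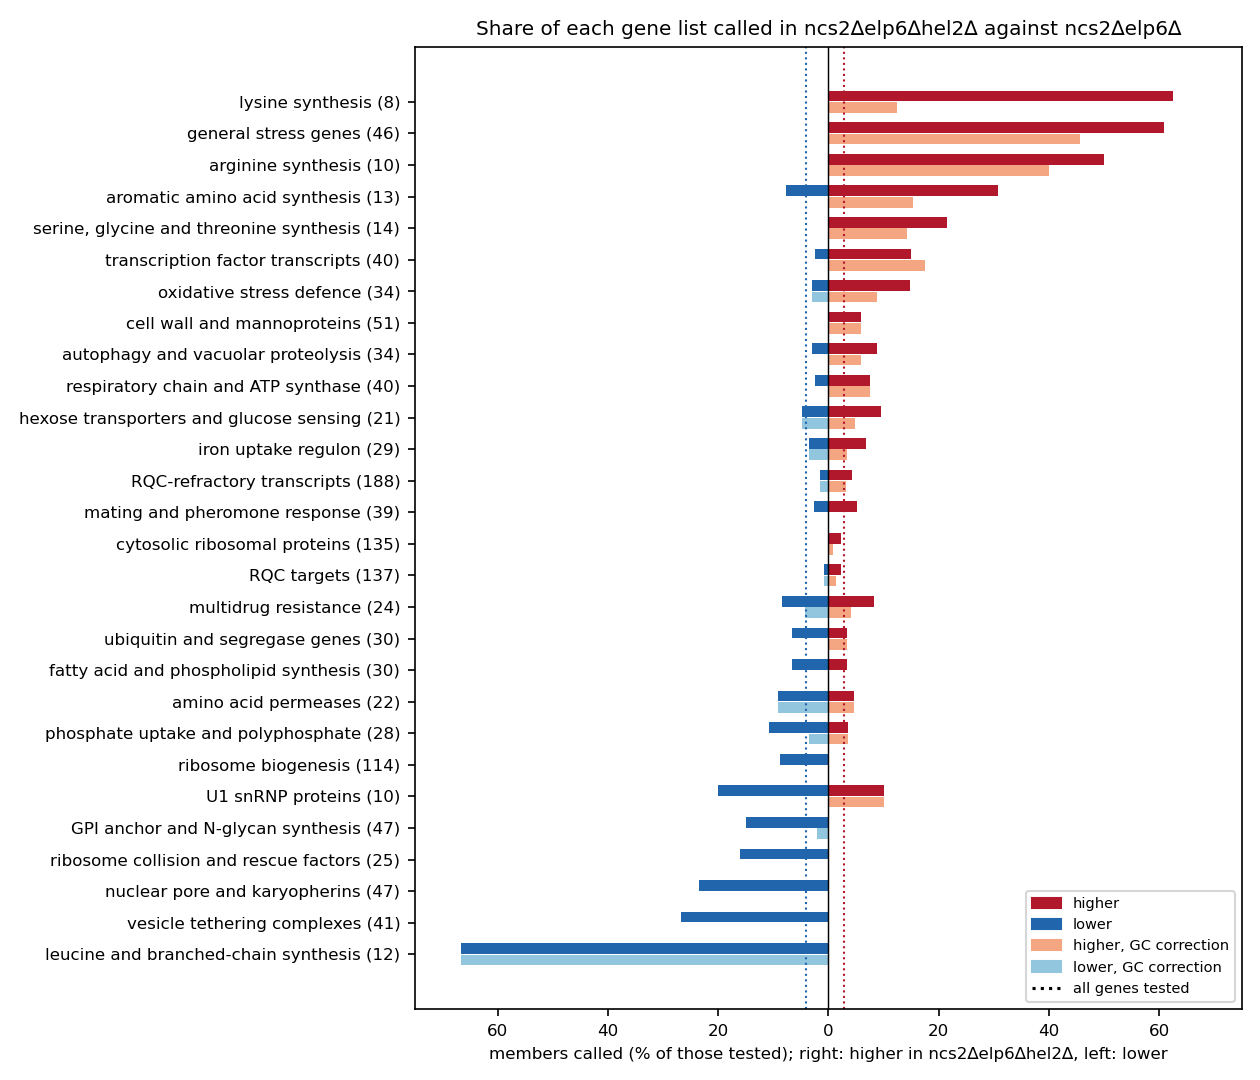
Share of the tested members of each list, in percent, that were called higher (right, red) or lower (left, blue) in ncs2∆elp6∆hel2∆ against ncs2∆elp6∆, with pale bars for the counts after correction for GC content, the number of members in brackets and dotted lines for all genes tested (2.81% higher, 4.12% lower). The 28 lists with at least 6 tested members, at least 3 of them called, are drawn, apart from chaperones and a-cell markers. General stress and branched-chain synthesis keep most of their calls in the pale bars, and tethering complexes, the nuclear pore and rescue factors keep none. Lists were drawn for having calls, so their distance from the dotted lines is a description only. The tethering, nuclear pore, GPI anchor and U1 lists were added after the calls had been seen. Members of the general stress list were chosen with earlier results of these data known.

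Factors that act on collided ribosomes were measured next to HEL2 itself. Of 25 genes, 4 fell besides the deleted gene, which is not on the list. RKR1 (YMR247C), the ubiquitin ligase also called LTN1 that marks the unfinished protein, had 58.0 and 67.8 CPM in ncs2∆elp6∆hel2∆, against 97.2 and 109 CPM in ncs2∆elp6∆ (-0.71 ± 0.12, edgeR adjusted p = 0.0111). SLH1 (YGR271W), the helicase that splits ubiquitinated ribosomes, had 57.8 and 62.6 CPM in ncs2∆elp6∆hel2∆, against 77.5 and 83.9 CPM in ncs2∆elp6∆ (-0.42 ± 0.08). SKI7 (YOR076C) and SKI8 (YGL213C), which send stalled mRNA to the exosome, fell by 0.46 and 0.36 on the log2 scale. The median of the list was 0.00 and the median GC content 38.3%. After correction edgeR called none, with 5 genes lower and 3 higher at an unadjusted p under 0.05, and DESeq2 without correction called 4 lower.

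Genes of ribosome production fell in small numbers. Of 114 ribosome biogenesis genes, 10 fell, or 8.77%, and the median was -0.02. URB2 (YJR041C) had 60.4 and 60.2 CPM in ncs2∆elp6∆hel2∆, against 106 and 115 CPM in ncs2∆elp6∆ (-0.88 ± 0.16), and UTP6 (YDR449C) had 91.5 and 85.9 CPM in ncs2∆elp6∆hel2∆, against 139 and 165 CPM in ncs2∆elp6∆ (-0.78 ± 0.15). URB1 (YKL014C) fell by 0.73 and UTP8 (YGR128C) by 0.57 on the log2 scale. After correction edgeR called none, with 16 genes lower and 7 higher at an unadjusted p under 0.05. RRN11 (YML043C), a factor of RNA polymerase I, and NIP1 (YMR309C), a subunit of initiation factor eIF3, fell by 0.38 and 0.42 on the log2 scale and lost their calls as well.

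The PAC element GATGAG is shown in capitals for the members of this list with the largest falls that hold it, URB2 at chrX:513714-514013 and UTP6 at chrIV:1358853-1359152, both on the minus strand, because called and uncalled members share it.
URB2: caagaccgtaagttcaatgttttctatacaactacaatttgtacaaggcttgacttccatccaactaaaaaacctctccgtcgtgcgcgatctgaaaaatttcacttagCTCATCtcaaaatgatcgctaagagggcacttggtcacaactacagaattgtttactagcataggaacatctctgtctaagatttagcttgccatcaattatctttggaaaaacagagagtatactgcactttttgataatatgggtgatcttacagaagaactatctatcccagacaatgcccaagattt
UTP6: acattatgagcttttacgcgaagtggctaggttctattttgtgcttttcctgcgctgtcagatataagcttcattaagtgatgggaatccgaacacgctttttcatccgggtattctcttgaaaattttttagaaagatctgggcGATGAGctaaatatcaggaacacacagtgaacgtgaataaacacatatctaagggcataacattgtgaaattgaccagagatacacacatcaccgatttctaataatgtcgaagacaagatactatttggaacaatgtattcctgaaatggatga

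Of the 10 genes that fell, 9 hold the element, as do 98 of the 104 members that did not pass, against 19.6% of all promoters. Cytosolic ribosomal proteins, by contrast, lay above 0 in 122 of 135 genes, with a median of 0.20. Only RPS9A, RPL22B and RPL9B passed, RPS9A (YPL081W) with 175 and 177 CPM in ncs2∆elp6∆hel2∆, against 112 and 123 CPM in ncs2∆elp6∆ (0.58 ± 0.11). RPL22B (YFL034C-A) rose by 0.42 ± 0.10 and RPL9B (YNL067W) by 0.33 ± 0.07. DESeq2 called 38 of them higher. After correction the median was 0.13 and 1 was called.

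For several processes no gene passed. They were mitochondrial ribosomal proteins, glycolysis and fermentation, genes of nitrogen catabolite repression, zinc and copper homeostasis, peroxisomes, aminoacyl-tRNA synthetases, cyclins with G1/S genes, and synthesis of thiamine, pyridoxine and biotin. These 8 lists hold 237 tested entries, with medians between -0.05 and 0.08. By edgeR 17 entries were higher and 16 lower at an unadjusted p under 0.05, and DESeq2 called 3 higher and 1 lower. Other lists had a few calls. In gluconeogenesis ALD4 (YOR374W), a mitochondrial aldehyde dehydrogenase, and MDH2 (YOL126C), the cytosolic malate dehydrogenase, rose by 0.33 ± 0.07 and 0.40 ± 0.10. In lipid synthesis PCT1 (YGR202C) rose by 0.36 ± 0.09, while CDS1 (YBR029C), EKI1 (YDR147W) and ERG29 (YMR134W) fell by 0.53, 0.36 and 0.57 on the log2 scale. URA1 (YKL216W) and FUR4 (YBR021W), which make and take up pyrimidines, fell by 0.36 and 0.51, and SPO21 (YOL091W) and PRM2 (YIL037C), of meiosis and mating, by 0.79 and 0.89 on the log2 scale. Of the 10 genes in the last 3 sentences, only URA1 was called after correction.

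The study had classed transcripts by their response to RQC, on ribosome profiles of strains it also used here, so the classes are not independent evidence. Membership follows its list of genes, while its text gives the sizes of the classes the other way round. Of 137 RQC targets, 3 rose and 1 fell, or 2.92% in all beside 6.93% of all genes tested, with a median of 0.06. Of 188 RQC-refractory transcripts, 8 rose and 3 fell, or 5.85%, with a median of 0.01. After correction for GC content 2 targets were called higher and 1 lower, and 6 refractory transcripts higher and 3 lower. The corrected medians were 0.11 for targets and -0.04 for refractory transcripts. At an unadjusted p under 0.05 by edgeR, 35 targets were then higher and 6 lower, and 17 refractory transcripts higher and 24 lower. Without the correction these counts were 27 and 16 for targets, and 19 and 10 for refractory transcripts. The difference between the classes was not tested here. The study did compare their mRNA fold changes between these strains, by a one-sided Kolmogorov-Smirnov test. It reports that targets had lower mRNA levels than refractory transcripts in ncs2∆elp6∆ and that this was reversed in ncs2∆elp6∆hel2∆. Among the targets HSP31, FIT2 and EIS1 rose and LEU1 fell. HSP31 (YDR533C), a glyoxalase on the chaperone list, had 109 and 103 CPM in ncs2∆elp6∆hel2∆, against 44.0 and 49 CPM in ncs2∆elp6∆. EIS1 (YMR031C), of the eisosomes under the plasma membrane, rose by 0.51 ± 0.10. Among the refractory transcripts BAT1, LEU4 and ILV2 fell, and ARG1, NCW2, LYS20, ARO4, ARO8 and LYS1 were among those that rose, so amino acid synthesis made up most of both directions. Coding sequences of genes that rose had a median of 3.42% AAA codons and those of genes that fell 4.64%, beside 4.11% for all. For CAA the medians were 2.44%, 2.58% and 2.54%, and for GAA 4.42%, 4.34% and 4.35%, in the same order. Genes that fell also had the lower GC content given above, and the part of GC content in the codon shares was not tested.

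The same deletion was set beside these values in cells with U34 modification. In hel2∆ against wild type, 19 genes rose and 21 fell, 0.312% and 0.345% of those tested. The interaction, the log2 fold change with HEL2 loss in ncs2∆elp6∆ minus that in wild type, passed for 69 genes or 1.13%, of which 59 (0.969%) were positive and 10 (0.164%) negative. It passed for 40 genes without ncs2∆elp6∆ replicate 2, 43 without ncs2∆elp6∆ replicate 1, 42 without ncs2∆elp6∆hel2∆ replicate 1 and 140 without hel2∆ replicate 1, and after correction for GC content 60 of the 69 kept their call. MET17 (YLR303W), the sulfhydrylase gene also called MET15, had 5918 and 6651 counts in ncs2∆elp6∆hel2∆ and 4321 and 5084 in ncs2∆elp6∆, but 0 in both hel2∆ libraries and 6 and 1 in wild type, although the labels give met15∆0 for wild type alone. Presence of MET17 and lack of U34 modification cannot be told apart in the interaction. Of the 46 general stress genes, 19 had a positive interaction. DDR2, which rose by 2.94 in ncs2∆elp6∆, had 6.92 and 10.8 CPM in hel2∆, against 14.0 and 16.8 CPM in wild type, and an interaction of 3.72 ± 0.34 (edgeR adjusted p = 0.000373). HXK1 had 236 and 246 CPM in hel2∆, against 353 and 347 CPM in wild type, so HEL2 loss was followed by a fall with U34 modification and by a rise without it (interaction 1.20 ± 0.10, edgeR adjusted p = 0.000213). YGP1 had 152 and 169 CPM in hel2∆, against 219 and 240 CPM in wild type, above every library without U34 modification, and its interaction was 2.04 ± 0.18.

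**Figure D5:**
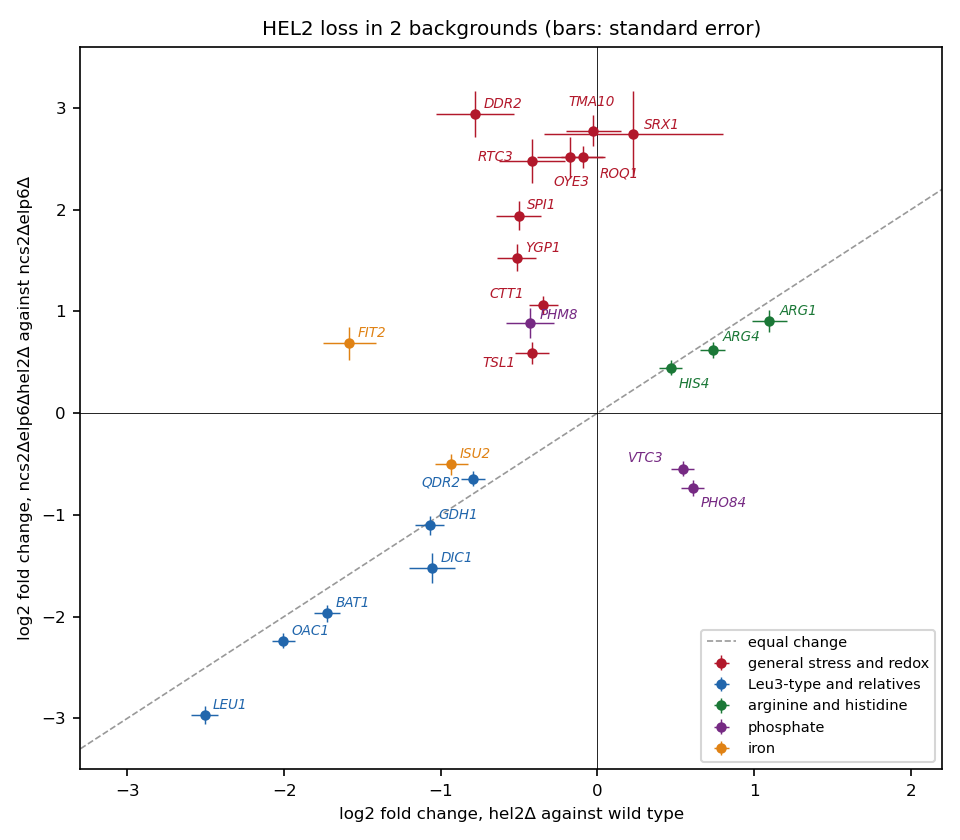
Log2 fold change with HEL2 loss in ncs2∆elp6∆ (vertical axis) against that in wild type (horizontal axis) for 24 named genes, with standard errors as bars and a dashed line where both are equal. Genes of leucine synthesis lie near the line, as do ARG1, ARG4 and HIS4, stress genes lie far above it, and PHO84 and VTC3 lie below it.

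Part of branched-chain synthesis fell in both backgrounds. In hel2∆ against wild type 5 of the 12 genes fell, while LEU4, ILV5 and ILV2 did not pass there (edgeR adjusted p = 0.231, 0.271 and 0.998), and none of the 12 had an interaction that passed. OAC1 had 40.7 and 40.8 CPM in hel2∆, against 166 and 161 CPM in wild type, and BAT1 had 296 and 271 CPM in hel2∆, against 908 and 967 CPM in wild type. Their interactions, -0.23 and -0.24, did not pass (edgeR adjusted p = 0.343 and 0.369). DIC1 and GDH1 fell in both backgrounds too, as did the permease BAP2 and the transporter QDR2. Of the genes with a Leu3 site, FSF1 and DRE2 also fell in hel2∆, by 0.66 and 0.49 on the log2 scale, and BRO1 had -0.08 and did not pass. The LEU2 marker is present in both hel2∆ strains.

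The arginine genes ARG1, ARG4 and ARG7 rose in hel2∆ as well. ARG1 had 75.3 and 72.4 CPM in hel2∆, against 31.7 and 37.5 CPM in wild type, and its interaction of -0.19 did not pass (edgeR adjusted p = 0.654). GCV1, by contrast, had 168 and 172 CPM in hel2∆, against 150 and 142 CPM in wild type, and a positive interaction of 0.73 ± 0.11 (edgeR adjusted p = 0.0132).

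Phosphate and iron genes differed between the backgrounds. VTC3 had 414 and 423 CPM in hel2∆, against 284 and 291 CPM in wild type, a rise with U34 modification beside the fall without it. FIT2 had 45.0 and 60.7 CPM in hel2∆, against 179 and 137 CPM in wild type (-1.58), and its interaction was 2.27 ± 0.23 (edgeR adjusted p = 0.000808). MXR1 had 89.4 and 96.6 CPM in hel2∆, against 78.7 and 84.8 CPM in wild type, and an interaction of -0.84 ± 0.11 (edgeR adjusted p = 0.00562). COX5B was higher with U34 modification, with 127 and 106 CPM in hel2∆, against 141 and 129 CPM in wild type, and its interaction was 1.08 ± 0.14. The median log2 fold changes of the tethering, pore, GPI anchor and rescue lists in hel2∆ against wild type were 0.02, 0.01, -0.03 and 0.04.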

How the data were processed

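Poly(A) RNA was sequenced from 4 yeast strains with 2 libraries each. The authors deposited 1 table of raw counts, whole numbers of reads per gene that were not normalised. Per the study's methods, stranded libraries were made and reads were mapped to coding sequences, and the submitters' processing notes name Bowtie and the sacCer3 build, with no role or version given. How reads shared between gene copies were counted is not given in the sources used here. Totals ran between 13252947 and 23941037 counts per library, and replicates differed by more than sampling noise in every strain.

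The deposited counts were tested with edgeR 4.0.16 in R 4.3.3 (TMM factors, quasi-likelihood test, Benjamini-Hochberg adjustment, genes with low counts filtered), in 1 fit of all 8 libraries that share an estimate of the spread. Contrasts were ncs2∆elp6∆hel2∆ against ncs2∆elp6∆, hel2∆ against wild type, and their difference, called the interaction. The test was run on simulated counts for 6087 genes of the first contrast, of which 200 were changed. It recovered 100% of changes of 1 and 2 log2 units and 65.2% of changes of 0.5, with 12 unchanged genes called. The simulated counts were drawn independently with the fitted spread and without the dependence on GC content. Only genes with a mean of at least 5 CPM were changed. These figures therefore hold for such counts and do not give the recovery or the false calls in the real libraries.

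Alternatives were DESeq2 1.42.0, RLE factors (size factors of the DESeq2 kind), library totals, no filter, a replicate block, a fit of the 4 libraries alone and leaving out each library. Correction for GC content (loess of each library's deviations with a span of 0.3, as offsets) and a crossed block were added after seeing the data.

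Genes, promoters and coding sequences were taken from RefSeq assembly R64, which 5804 of 6337 table genes matched. Motifs were searched on both strands of 300 bases, overlapping matches included, and a match is a description only. Named genes were HEL2, NCS2, ELP6, the 12 largest rises and falls with a mean of at least 5 CPM and no overlap between strains, up to 4 called members per list, and 6 regulators, and 17 more were added after their values were seen. Chaperones and the marker genes LEU2 and URA3 were set aside, and 1 gene that met these rules is not reported here. Lists and members were chosen with earlier results of these data known, and the lists of the nuclear pore, tethering, GPI anchor and U1 genes were added after the calls had been seen.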

Additional observations from a re-analysis of the deposited data

Results flagged for a closer look

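For 30 named genes the change with HEL2 loss differed between cells without and with U34 modification, by edgeR's test of the interaction with Benjamini-Hochberg adjustment over all genes. The values are log2 fold changes in ncs2∆elp6∆ minus those in wild type. Among general stress genes the interaction was 3.72 for DDR2, 2.90 for RTC3, 2.80 for TMA10, 2.61 for ROQ1, 2.45 for SPI1, 2.04 for YGP1 and 1.41 for XBP1. It was 1.31 for MSC1, 1.24 for STF2, 1.20 for HXK1, 1.16 for DCS2, 1.01 for TSL1 and 0.58 for TPS2. In defence against oxidation it was 2.69 for OYE3, 1.41 for CTT1 and -0.84 for MXR1.

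Among regulators and protein turnover the interaction was 1.00 for CIN5, 0.69 for RPN4, 0.75 for UBI4 and 0.53 for APE1, and for HSP31 it was 1.35. In transport, the cell wall and metabolism it was 2.27 for FIT2, 1.08 for COX5B, 0.83 for TPO4, 0.79 for NCW2 and 0.73 for GCV1. Phosphate genes differed in both directions, with 1.32 for PHM8, -0.82 for PHO81, -1.09 for VTC3 and -1.35 for PHO84. Both strains without U34 modification had MET17 transcripts and both strains with it lacked them, so the part of MET17 in the interaction cannot be told apart from that of U34 modification.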

How the results depend on the processing

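The 422 genes called in ncs2∆elp6∆hel2∆ against ncs2∆elp6∆ became 645 with DESeq2, 869 in a fit of the 4 libraries alone and 143 after correction for GC content, and between 69 and 587 with 1 library left out. The 171 rises became 302, 347 and 109 under the same 3 settings and 50 to 211 with 1 library left out. The 251 falls became 522 in the 4 libraries alone, 447 with library totals, 34 after correction for GC content and 18 to 376 with 1 library left out. The split of rises and falls, 171 and 251, was 188 and 205 with RLE factors and 133 and 447 with library totals, which moved the median of all genes to -0.06. DESeq2 kept 409 of the 422 calls, RLE factors 376, library totals 384 and no filter 421.

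Deviations of same-numbered libraries correlated at -0.21 between the strains compared and at 0.476 between hel2∆ and wild type, and no label ties the numbers to a batch, so they were not taken as pairs. With the replicate number as a block, 663 genes were called, 445 of them lower, and all 422 calls were kept. With the block crossed, chosen after seeing the data, 1265 were called, 548 higher and 717 lower. The interaction gave 119 genes with the block (51 negative) and 322 with the crossed block (160 positive and 162 negative), against 69. DESeq2 gave 153 for the interaction, 97 positive and 56 negative. With 1 library left out the interaction gave 40 to 140 genes, 36 to 60 positive and 4 to 80 negative. SEC10 reversed, to 0.036 after correction for GC content, and lost its call. Of the 154 named genes, 73 others lost their call in that correction. The causes were not tested. With 2 libraries per strain the spread is estimated from few values, and the marker LEU2 and the loss of HEL2 cannot be told apart.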
